A study of Mus musculus with 2 samples.

Results

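CC chemokine ligands are small secreted proteins, named for a pair of adjacent cysteines, that draw leukocytes bearing CC receptors. The 10 genes described are *Ccl2*, *Ccl3*, *Ccl4*, *Ccl5*, *Ccl6*, *Ccl7*, *Ccl8*, *Ccl9*, *Ccl17* and *Ccl22*, chosen by name, and all 10 were found among the 31053 genes of the count table. Leukocytes came from the arch and thoracic aorta of Apoe-/- mice, which lack apolipoprotein E and develop atherosclerosis. All mice ate a western diet for 4 weeks, with weekly nt-LNA at 30 mg/kg in one group and weekly saline in the other (the sources used here give neither the ages nor how many mice were pooled). Live CD45+/CD3- cells were sorted and sequenced as 1 droplet-based 3' library per treatment, with 4871 nt-LNA cells and 2742 saline cells in 20 clusters.

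In the vessel wall, ligands of Ccr2 such as Ccl2 and Ccl7 recruit monocytes from the blood. Ccl3, Ccl4 and Ccl5 draw monocytes, T cells and NK cells and are known products of NK cells, T cells and macrophages. Ccl17 and Ccl22 bind Ccr4 on T cells and are known products of dendritic cells.

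Each gene has 1 summed count of unique molecular identifiers (UMIs) per cluster, over both libraries, so there is no replicate and nothing was tested. Levels are given as CPM, the UMIs of a gene scaled to a common total per cluster, where the levels of all genes add up to 1000000, with exact 95% Poisson intervals that cover counting error only. The clusters were made from expression values of the same cells, so the levels describe the clusters. Cluster totals ran from 212515 to 12985745 UMIs, and the mitochondrial share, 2.53% to 4.29% in 16 clusters, was 7.24% to 11.2% in clusters 2, 5, 14 and 16. Of the 7613 cells, 2 barcodes occurred in both libraries. Marker genes made cluster 3 NK cell-like (6 of 6 NK markers among its 50 leading genes), cluster 7 neutrophil-like (6 of 7), cluster 15 nonclassical monocyte-like (4 of 6), cluster 17 type 1 dendritic cell-like (4 of 5) and cluster 18 plasmacytoid dendritic cell-like (4 of 5). Cluster 16 was group 2 innate lymphoid cell (ILC2)-like (3 of 5) and cluster 6 proliferating-like (3 of 5). Cluster 10 had *Spp1*, *Gpnmb* and *Vcan*, genes of lipid-laden macrophages and monocytes, among its 10 leading genes. With 3 of 6 markers of lipid-laden macrophages and 2 of 6 of classical monocytes among its 50 leading genes, it is given by number. Cluster 8, with the dendritic cell genes *Fscn1*, *Il4i1*, *Cd209a* and *Mgl2* among its 50 leading genes, fell short of 3 markers of 1 list once *Ccl22* was left out, and it is given by number. Clusters 0 and 19 are also given by number. Cluster 0 held the smooth muscle genes *Myh11* and *Cnn1* and the basophil genes *Mcpt8* and *Prss34* among its 10 leading genes, and cluster 19 was led by *Alox15*, *Cxcl13*, *Marco* and *Prg4*.

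The 10 ligands divided among 4 clusters by where each was highest. *Ccl3*, *Ccl4* and *Ccl5* were highest in the NK cell-like cluster 3, *Ccl2*, *Ccl7*, *Ccl6* and *Ccl9* in cluster 10, *Ccl17* and *Ccl22* in cluster 8, and *Ccl8* in cluster 0. All 10 were over 4 times as high in their leading cluster as in the mean of the other clusters, and 7 of 10 were over 10 times as high. Over the 12780 genes with at least 50 UMIs, 34.8% passed the 4-fold mark and 10.5% the 10-fold mark. The median ratio was 12.5 for the ligands and 2.999 for those 12780 genes. The highest level lay in a cluster deposited as Macrophages for 7 of the 10 ligands, and for 33.2% of those 12780 genes, at any ratio.

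**Figure D1:**
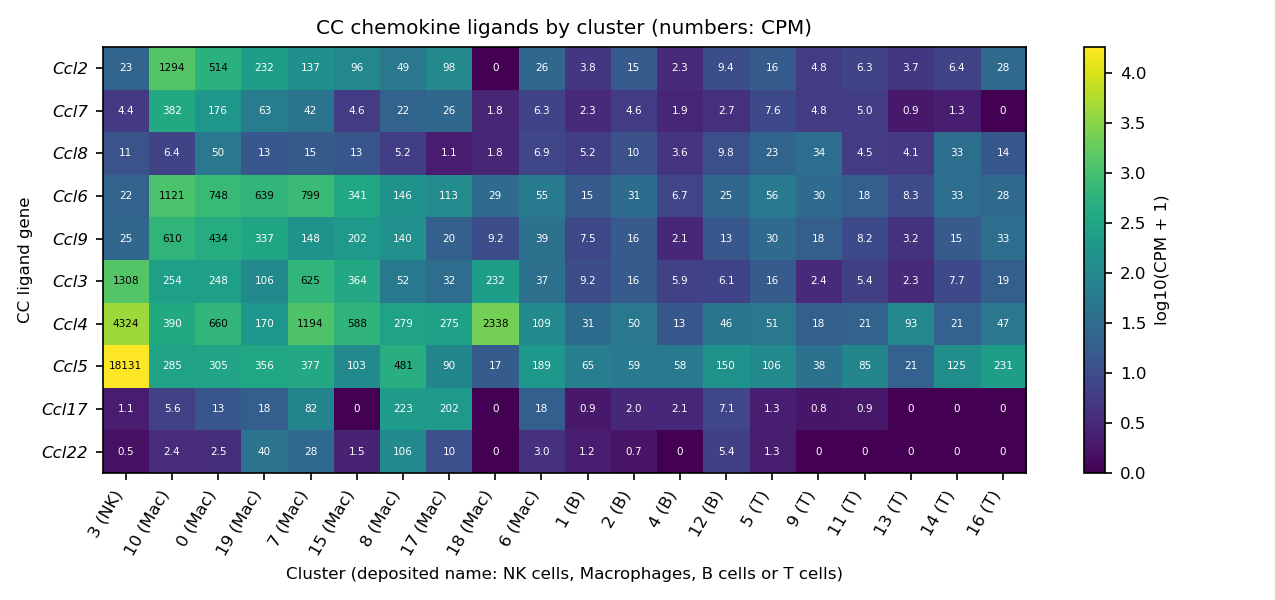
The colour and the printed numbers give the level of each ligand (rows) in each cluster (columns, with the deposited cell type name), the colour as log10(CPM + 1) and the numbers as CPM. The highest level is 18131 CPM of *Ccl5* in cluster 3, and among the B and T cell clusters on the right *Ccl8* is highest in cluster 9 and *Ccl5* in cluster 16.

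Together the 10 ligands gave 191963 UMIs, 0.273% of all. Their summed level was 23849.9 CPM (23692.3 to 24008) in cluster 3, or 2.38% of that cluster's UMIs, against a mean of 1170.25 CPM in the other clusters. Next came cluster 10 with 4352 CPM (4300.02 to 4404), and then clusters 7, 0 and 18 with sums of 3448, 3149 and 2629. The lowest sum, 96.3 CPM (89.2 to 103.9), was in cluster 4, which carried antibody genes. Cluster 3 held 45.6% of all UMIs of the 10 ligands, cluster 0 held 21.3% and cluster 10 held 14.1%. Per cell the sum was 139 UMIs in cluster 3, 75.7 in cluster 10 and 43.5 in cluster 0.

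The make-up of the sum differed between clusters. UMIs of 3' tags are not scaled by transcript length, so these are shares of UMIs within a cluster. *Ccl5* made up 76.0% in cluster 3 and *Ccl4* 88.9% in cluster 18. In cluster 10 the sum was spread, with *Ccl2* at 29.7%, *Ccl6* at 25.8% and *Ccl9* at 14.01%. In cluster 7 *Ccl4* gave 34.6% and *Ccl6* 23.2%. *Ccl5* gave 32.0% in cluster 8, where *Ccl17* added 14.8% and *Ccl22* 7.06%.

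**Figure D2:**
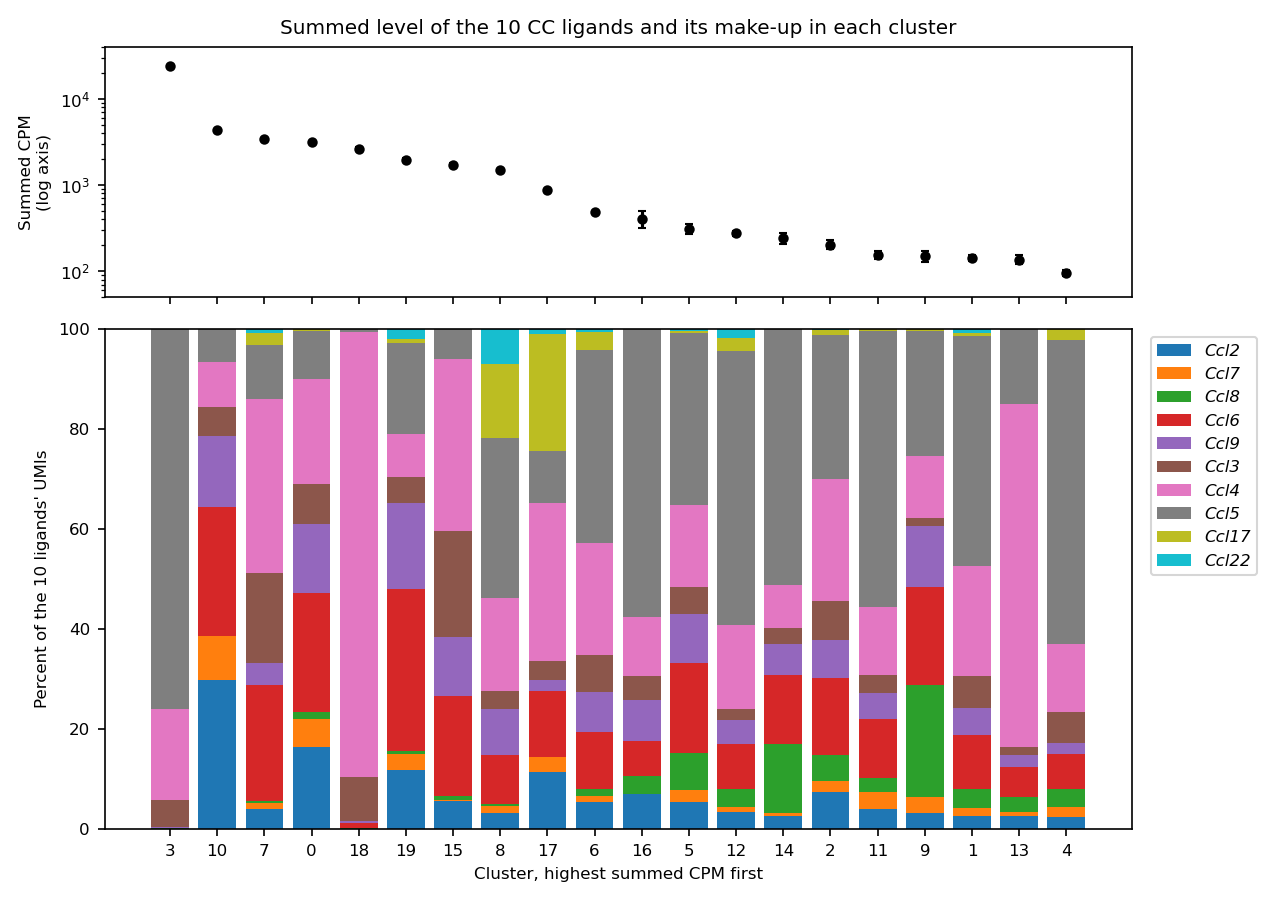
The upper panel shows the summed CPM of the 10 ligands in each cluster as a point with its 95% Poisson interval on a log axis, and the lower panel the percent of the ligands' UMIs that each ligand gave. Cluster 3 stands highest at 23849.9 CPM and is mostly *Ccl5*, while cluster 18 is mostly *Ccl4*.

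*Ccl2* encodes monocyte chemoattractant protein 1, the main ligand of Ccr2. Cluster 10 had 1294 CPM of it (1266 to 1323), whereas cluster 0 had 514 (501 to 526) and cluster 19 had 232 (197 to 272). The neutrophil-like cluster 7 had 137 CPM, and the median over the 20 clusters was 19.5 CPM. Cluster 18 had 0 UMIs of *Ccl2*, which allows up to 5.53 CPM. The level in cluster 10 was 2.52 times that in cluster 0 (2.44 to 2.603), and these 2 clusters held 49.0% and 40.5% of the *Ccl2* UMIs.

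*Ccl7* encodes another Ccr2 ligand, monocyte chemoattractant protein 3, and lies next to *Ccl2* on chromosome 11. Cluster 10 had 382 CPM of it (367 to 398), whereas cluster 0 had 176 (169 to 184). Clusters 19 and 7 followed with 62.6 and 42.3, and the median over clusters was 4.70 CPM. So *Ccl2* and *Ccl7* shared their order in the first 5 clusters (10, 0, 19, 7 and 17). The place of cluster 17 was within counting error. Its ratio to the next cluster was 1.03 for *Ccl2* (cluster 15, 0.811 to 1.30) and 1.22 for *Ccl7* (cluster 8, 0.852 to 1.72). The 2 genes parted in the nonclassical monocyte-like cluster 15, with *Ccl2* at 96.0 CPM (80.0 to 114) and *Ccl7* at 4.57 CPM from 6 UMIs.

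*Ccl6* and *Ccl9* encode Ccr1 ligands of rodent macrophages. *Ccl6* reached 1121 CPM in cluster 10 (1095 to 1148), followed by 799 in cluster 7 (769.8 to 828), 748 in cluster 0 (733 to 763), 639 in cluster 19 (579.9 to 702) and 341 in cluster 15 (309.7 to 374). It was the most evenly spread of the 4 ligands led by cluster 10, with a ratio to the mean of the other clusters of 6.78. *Ccl9* reached 609.8 CPM in cluster 10 (591 to 629.5), followed by 434 in cluster 0 (423 to 446) and 337 in cluster 19 (294 to 383). In cluster 7 it was at 148 CPM, 24.3% of its level in cluster 10, where *Ccl6* was at 71.2%. Cluster 10 had 358 cells and cluster 0 had 941. Cluster 10 held 31.0% of the *Ccl6* UMIs and 31.7% of the *Ccl9* UMIs, and cluster 0 held 43.0% and 47.0%.

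Over the 20 clusters the profiles of *Ccl6* and *Ccl9* were the most alike of the 45 pairs of ligands (Pearson r = 0.95 of log2(CPM + 1), 20 clusters). The genes are next to each other on chromosome 11. Their RefSeq upstream sequences (GRCm38.p6, minus strand, 250 bases before the start, chr11:83593088-83593337 for *Ccl6* and chr11:83578637-83578886 for *Ccl9*) are shown because the genes are neighbours with like profiles. Sequences run 5′ to 3′ in the direction of the gene, and capitals mark matches, on either strand, to the kappa B consensus or the AP-1 motif TGANTCA.
Ccl6: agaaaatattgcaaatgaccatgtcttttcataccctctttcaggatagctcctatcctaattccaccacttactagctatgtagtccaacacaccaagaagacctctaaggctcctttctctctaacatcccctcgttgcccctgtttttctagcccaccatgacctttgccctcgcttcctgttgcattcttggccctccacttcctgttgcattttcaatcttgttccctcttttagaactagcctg
Ccl9: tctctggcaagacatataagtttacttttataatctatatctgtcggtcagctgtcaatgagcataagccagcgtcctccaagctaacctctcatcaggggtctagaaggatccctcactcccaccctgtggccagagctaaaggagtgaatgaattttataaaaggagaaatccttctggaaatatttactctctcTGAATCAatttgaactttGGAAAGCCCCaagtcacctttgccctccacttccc
The *Ccl9* window held 1 match to the kappa B consensus, 35 to 26 bases before the start on the opposite strand, and 1 to TGANTCA, 53 to 47 bases before it. The *Ccl6* window held neither, nor GAAANNGAAA, the core of the interferon-stimulated response element. Of all 32851 promoters in the table, 7.25% held the kappa B consensus, 6.75% TGANTCA and 2.98% GAAANNGAAA within the same 250 bases, on either strand. The aligned windows of *Ccl6* and *Ccl9* were 46.2% identical, within the 43.7% to 50.6% of all pairs of the 6 ligands with a promoter in the table (*Ccl3*, *Ccl6*, *Ccl8*, *Ccl9*, *Ccl17* and *Ccl22*). These are matches of letters, and no binding was measured.

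In cluster 10, 4 of the 10 ligands (*Ccl2*, *Ccl7*, *Ccl6* and *Ccl9*) were over 4 times the mean of the other clusters, where 1.86% of all genes passed that mark. In cluster 0, 5 of 10 passed it, the same 4 and *Ccl8*, against 2.61% of all genes. In cluster 7, 2 of 10 passed it, *Ccl6* and *Ccl3*, against 2.61% of all genes. Cluster 7 also carried transcripts of macrophage markers. The 10 macrophage markers summed to 1353 CPM there, against 6614 CPM in cluster 0, with a median of 19.5% of the cluster 0 level (8.61% to 48.7%) and none at 0. Cluster 10 was alike, with 1422 CPM and a median of 18.4% (3.57% to 92.4%). Cluster 19 had 9642 CPM and a median of 97.6% (0 to 687%). Cluster 10, which leads *Ccl6*, was gauged with 12 markers of lipid-laden macrophages and classical monocytes. In cluster 7 these 12 were at a median of 32.0% of their cluster 10 level (12.2% to 159%). *Ccl6* lay within that range, at 71.2%. *Ccl2*, *Ccl7*, *Ccl6* and *Ccl9* each lay above all 12 markers in 0 of 19 clusters. The part of macrophage transcripts in the *Ccl6* level of cluster 7 was not tested.

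**Figure D3:**
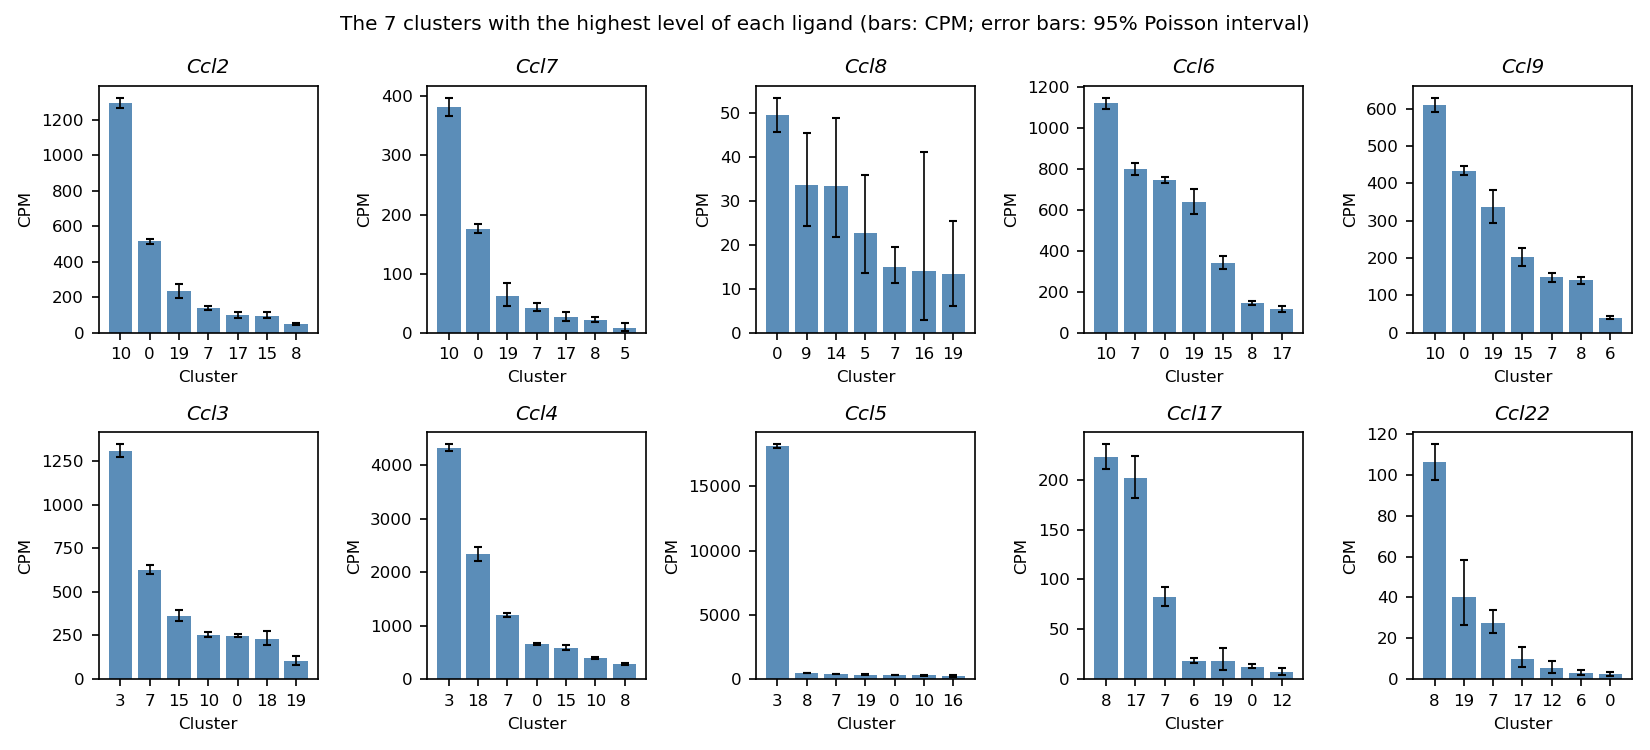
Each panel shows 1 ligand in the 7 clusters where it was highest, as CPM (bars) with 95% Poisson intervals (error bars). *Ccl5* is high in cluster 3 alone, *Ccl17* is near equal in clusters 8 and 17, and the intervals of *Ccl8* are wide.

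The order of the 20 clusters was resolved to different degrees. Of the 19 steps from a cluster to the next lower one, the interval of the ratio lay above 1 for 12 steps of *Ccl4*, 9 of *Ccl6*, 8 of *Ccl5*, 6 each of *Ccl3* and *Ccl9*, 5 each of *Ccl2* and *Ccl7*, 4 of *Ccl17*, 2 of *Ccl22* and 1 of *Ccl8*. Steps between clusters that both had 0 UMIs of *Ccl17* or *Ccl22* have no ratio. Clusters 7 and 8, for example, did not differ beyond counting error in *Ccl9* (ratio 1.06, 0.947 to 1.18), whereas clusters 7 and 0 did in *Ccl6* (1.07, 1.02 to 1.11). Clusters 10 and 7 were further apart in *Ccl6* (1.40, 1.34 to 1.47), and clusters 3 and 7 in *Ccl3* (2.09, 1.99 to 2.20).

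*Ccl8* encodes monocyte chemoattractant protein 2, which in the mouse acts through Ccr8. It was the scarcest of the ligands led by clusters 0 and 10, at 49.6 CPM (45.8 to 53.6) in cluster 0, with 1111 UMIs in all. Clusters 9, 14 and 5, all deposited as T cells although the sort was for cells without CD3, came next in CPM. Cluster 9 had 33.7 CPM (24.3 to 45.5) from 42 UMIs, cluster 14 had 33.4 (21.8 to 48.9) from 26 UMIs and cluster 5 had 22.8 (13.5 to 36.0) from 18 UMIs. Per cell the order was another, with 0.684 UMIs in cluster 0, 0.333 in cluster 19 (from 9 UMIs), 0.153 in cluster 6 and 0.140 in cluster 7. Clusters 14, 9 and 5 had 0.131, 0.117 and 0.0291 UMIs per cell. Cluster 10 had 6.42 CPM, against 1294 CPM of *Ccl2*. The step between cluster 0 and cluster 9 was a ratio of 1.47 (1.08 to 2.06), and the other 18 steps in the order of *Ccl8* had intervals that held 1.

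Low levels of macrophage genes in lymphoid clusters can come from free RNA, and the macrophage markers gauge that level. In cluster 9 the 10 macrophage markers were at a median of 2.69% of their level in cluster 0 (1.63% to 4.43%), while *Ccl8* was at 67.9%. In cluster 14 they were at a median of 3.15% (0 to 6.21%), while *Ccl8* was at 67.3%. *Ccl8* lay above every one of these markers in 12 of the 19 clusters compared. The source of *Ccl8* in these clusters was not tested.

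*Ccl5* encodes RANTES, a chemoattractant of T cells and monocytes that cytotoxic lymphocytes store. The NK cell-like cluster 3 had 18131 CPM of it (17994 to 18269), whereas cluster 8 had 481 (463 to 499.6). Clusters 7, 19, 0 and 10 followed with 377, 356, 305 and 285. Cluster 3 stood alone at 109.7 times the mean of the other clusters, and it held 82.5% of the 80666 *Ccl5* UMIs. Per cell this was 106 UMIs in cluster 3 and 7.15 in cluster 8. The lowest level was 16.6 CPM in cluster 18.

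Set against cluster 3, *Ccl5* was about as low as NK markers in several other clusters. In cluster 0 *Ccl5* was at 1.68% of its cluster 3 level, beside a median of 1.57% (1.42% to 2.39%) for the 6 NK markers *Klra7*, *Ncr1*, *Klrb1c*, *Gzma*, *Prf1* and *Klra8*. In cluster 10 *Ccl5* was at 1.57%, beside 1.54% (0.689% to 1.84%), and in cluster 7 at 2.08%, beside 1.79% (1.17% to 2.88%). In cluster 19 it was at 1.96%, beside a median of 1.91%, but there the markers spread over 0 to 6.08%. Whether *Ccl5* UMIs in these clusters came from their own cells was not tested. *Ccl5* lay above all 6 markers in 3 of 19 clusters, counting error left aside. These were cluster 8 with 2.65% (markers 0.192% to 1.007%), cluster 15 with 0.567% (0 to 0.490%) and cluster 11, a cluster deposited as T cells, with 0.470% (0 to 0.285%).

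*Ccl4* and *Ccl3* encode macrophage inflammatory proteins 1 beta and 1 alpha, which draw monocytes and lymphocytes. Cluster 3 had 4324 CPM of *Ccl4* (4257 to 4392), whereas cluster 18, like plasmacytoid dendritic cells, had 2338 (2211 to 2470.1) and cluster 7 had 1194 (1159 to 1231). Clusters 0, 15 and 10 followed with 660.2, 588 and 390.2. For *Ccl3* cluster 3 had 1308 CPM (1271 to 1346), whereas cluster 7 had 625 (599.8 to 652) and cluster 15 had 364 (332 to 398). Clusters 10, 0 and 18 followed with 254, 248 and 232, neighbours in the order whose ratios had intervals that held 1. The 2 genes are neighbours on chromosome 11, and their profiles gave r = 0.92 over the 20 clusters. They differed in cluster 18, where *Ccl4* reached 54.1% and *Ccl3* 17.7% of the cluster 3 level.

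Unlike *Ccl5*, both genes lay above every NK marker in many clusters (11 of 19 for each). These counts leave out counting error, and in cluster 11 *Ccl3* was at 0.416% from 12 UMIs, beside markers of up to 0.285%. In cluster 18, 5 of the 6 NK markers had 0 UMIs and the highest, *Gzma*, was at 0.127% of its cluster 3 level. *Ccl5* in cluster 18 was at 0.0914%. The 59 cells of cluster 18 averaged 21.5 UMIs of *Ccl4*, close to the 25.3 of cluster 3. In the nonclassical monocyte-like cluster 15 *Ccl3* was at 27.8% and *Ccl4* at 13.6%, while the NK markers had a median of 0.152% and reached 0.490%.

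**Figure D4:**
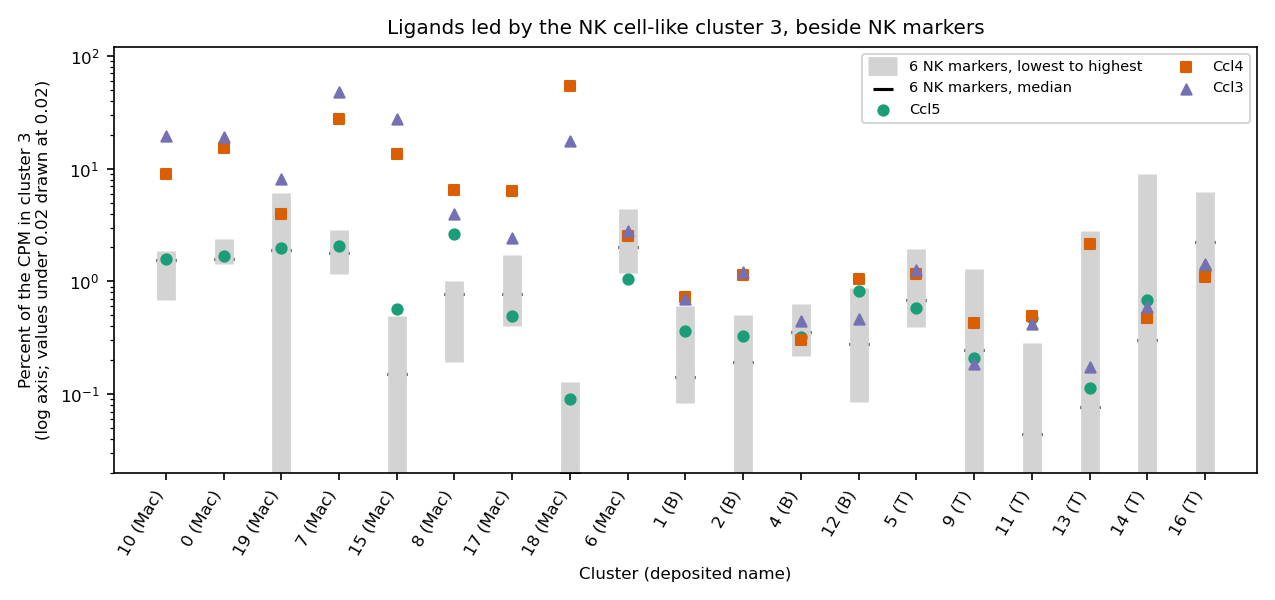
For each cluster other than 3, the points give *Ccl5*, *Ccl4* and *Ccl3* as a percent of their CPM in cluster 3 on a log axis, with the range (grey) and median (black) of 6 NK markers. *Ccl5* lies inside the marker range in clusters 10, 0, 19 and 7 and above it in cluster 8, and *Ccl4* in cluster 18 is at 54.1%, where the markers reach 0.127%.

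In cluster 3, 3 of the 10 ligands (*Ccl3*, *Ccl4* and *Ccl5*) passed 4 times the mean of the other clusters, against 1.93% of all genes. In cluster 18, 1 of 10 passed it, *Ccl4*, against 2.78% of all genes.

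*Ccl17* and *Ccl22* encode TARC and macrophage-derived chemokine, ligands of Ccr4 that attract Th2 and regulatory T cells. Cluster 8 had 223 CPM of *Ccl17* (211 to 236), and cluster 17, like type 1 dendritic cells, had 202 (182 to 224), so that the interval of their ratio of 1.10 held 1 (0.980 to 1.24). Cluster 7 followed with 82.4 (73.3 to 92.3) and cluster 6 with 18.2. In 5 clusters there were 0 UMIs, for which the limit of 3 counts is 1.38 CPM in cluster 13 and 14.1 in cluster 16. Per cell the order of the first 2 turned, with 3.32 UMIs in cluster 8 and 3.62 in cluster 17. For *Ccl22* cluster 8 had 106 CPM (97.8 to 115), whereas cluster 19 had 40.2 (26.5 to 58.5) from 27 UMIs, cluster 7 had 27.7 (22.5 to 33.6) and cluster 17 had 10.1 (5.96 to 15.9) from 18 UMIs. So cluster 17 had 90.7% of the cluster 8 level for *Ccl17* and 9.48% for *Ccl22*. For *Ccl22*, 7 clusters had 0 UMIs, for which the limit of 3 counts is 0.43 CPM in cluster 4 and 14.1 CPM in cluster 16.

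In cluster 8, 2 of 10 ligands (*Ccl17* and *Ccl22*) passed 4 times the mean of the other clusters, against 1.51% of all genes. In clusters 17 and 19, 1 of 10 passed it, *Ccl17* (1.79% of all genes) and *Ccl22* (2.78%). In cluster 7 *Ccl17* was at 36.9% and *Ccl22* at 26.1% of the cluster 8 level, while the 5 mature dendritic cell markers *Ccr7*, *Fscn1*, *Il4i1*, *Socs2* and *Relb* were at a median of 12.3% (2.76% to 19.6%). Their part in the levels of cluster 7 was not tested.

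*Ccl22* and *Ccl17* lie on chromosome 8 with 1 gene, *Cx3cl1*, between them, and their profiles gave r = 0.88. Their upstream sequences (RefSeq, GRCm38.p6, plus strand, 250 bases before the start, chr8:94745434-94745683 for *Ccl22* and chr8:94810203-94810452 for *Ccl17*) are shown as those of the pair led by cluster 8. They hold no capitals because none of the 3 motifs was found in either.
Ccl22: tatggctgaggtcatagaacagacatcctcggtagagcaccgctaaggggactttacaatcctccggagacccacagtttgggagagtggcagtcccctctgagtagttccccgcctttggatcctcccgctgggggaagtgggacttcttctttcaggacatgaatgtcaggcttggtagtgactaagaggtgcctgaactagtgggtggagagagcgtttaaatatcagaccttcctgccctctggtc
Ccl17: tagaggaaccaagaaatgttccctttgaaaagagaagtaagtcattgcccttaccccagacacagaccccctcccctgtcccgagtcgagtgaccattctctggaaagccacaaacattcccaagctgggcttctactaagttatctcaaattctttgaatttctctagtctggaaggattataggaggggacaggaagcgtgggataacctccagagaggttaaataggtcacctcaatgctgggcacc
The windows were 49.1% identical once aligned. The absence of these letters from the windows says nothing about the factors that bind such motifs.

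Neighbours along the chromosome were not always alike. *Ccl9* lies next to *Ccl5*, with r = 0.45, and *Ccl6* next to *Ccl3*, with r = 0.67. All 6 pairs among *Ccl2*, *Ccl7*, *Ccl6* and *Ccl9* had r between 0.81 and 0.95, although *Ccl8* and *Ccl5* lie between *Ccl2* and *Ccl9* on the chromosome. *Ccl8*, with *Ccl11* and *Ccl12* between it and *Ccl7*, had the lowest value of any pair, -0.20 with *Ccl17*. These values share the same 20 clusters, whose depths differ, and are given as a description.

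**Figure D5:**
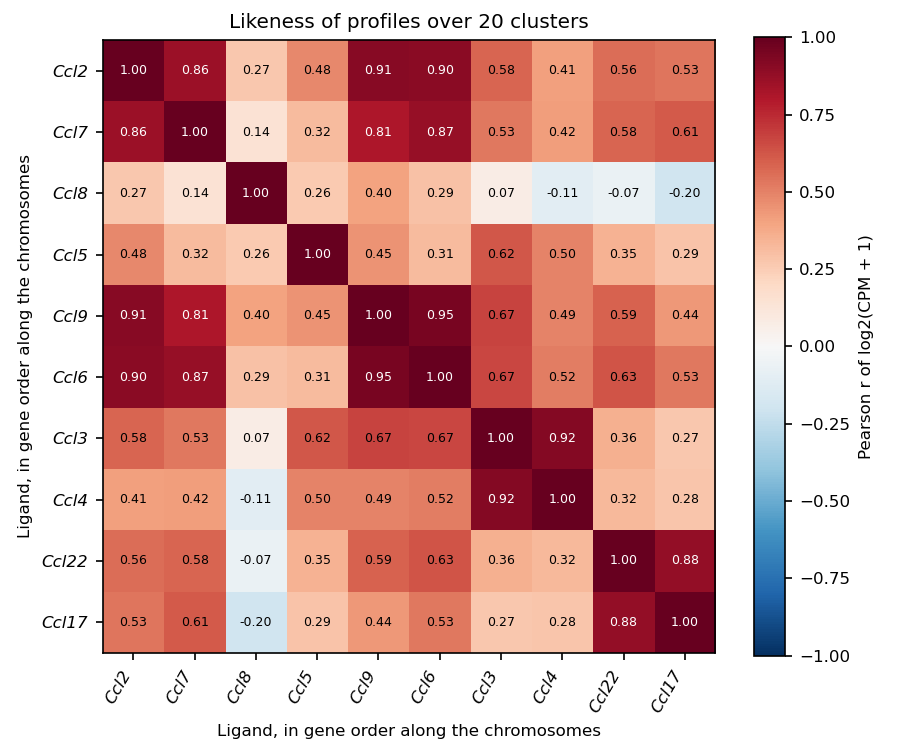
Colour and numbers give Pearson's r of log2(CPM + 1) over the 20 clusters for each pair of ligands, in gene order along chromosomes 11 and 8. The blocks of *Ccl9* with *Ccl6* (0.95), *Ccl3* with *Ccl4* (0.92) and *Ccl22* with *Ccl17* (0.88) stand out, and *Ccl8* is low against *Ccl3*, *Ccl4*, *Ccl22* and *Ccl17*.

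Among the 10685 genes with at least 200 UMIs, those most like *Ccl5* were the NK receptor genes *Klrb1c* (r = 0.93), *Klri2* (0.92) and *Ncr1* (0.92). For *Ccl3* they were *Fcer1g* (0.94) and *Tyrobp* (0.92), adaptors of activating receptors in NK and myeloid cells, and *Ccl4*. *Ccl4* was followed most closely by *Ccl3*, *Gpr160* (0.89) and *Tyrobp* (0.87). *Ccl6* was most like *Ifi204* (0.97), the lipopolysaccharide co-receptor gene *Cd14* (0.96) and the lysozyme gene *Lyz2* (0.96), and *Ccl9* was most like *Ccl6*, *Ms4a6d* (0.95) and *Hacd4* (0.94). For *Ccl2* they were *Tmem106a* (0.94), *Hacd4* (0.93) and *Ccl9* (0.91), and for *Ccl7* the scavenger receptor gene *Stab1* (0.92), the C3a receptor gene *C3ar1* (0.90) and *Serpinb8* (0.88). *Ccl17* had *Ccl22*, *Zbtb46* (0.85), a transcription factor gene of classical dendritic cells, and *Arhgap22* (0.85), and *Ccl22* had *Ccl17*, *Ifitm1* (0.82) and *Nudt17* (0.81). *Ccl8* was again apart: *Slc26a2* (0.83), *Cnppd1* (0.83) and *Trip4* (0.82) were nearest, and all 3 were highest in cluster 5.

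In the 10 clusters deposited as B or T cells most ligands were low. The median over these clusters was 6.38 CPM for *Ccl2*, 0.493% of its leading level, and 75.3 CPM for *Ccl5*, 0.415%. For *Ccl6* and *Ccl9* the medians were 2.35% and 2.37%, and for *Ccl8* 20.4%. The neutrophil genes *S100a8* and *S100a9* were at medians of 0.136% and 0.142% of their leading level in the same clusters, and *Lyz2* at 0.575%. The highest values for *Ccl17* and *Ccl22* there were 3.17% and 5.07%, both in cluster 12.

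Over the 20 clusters, 8 had at least 1 ligand above the 4-fold mark. In the other 12 clusters 0 of 10 ligands passed it. There the share of all genes above the mark was 0.125% in cluster 12, 0.712% in 1, 1.10% in 4, 1.91% in 15, 1.96% in 11, 2.14% in 9, 2.31% in 6, 2.35% in 2, 2.37% in 13, 4.02% in 5, 5.60% in 16 and 5.88% in 14.

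Of the other 13 CC ligands listed, 5 had at least 50 UMIs, and 3 of these passed 4 times the mean of the other clusters in their leading cluster, where 34.8% of all genes did. *Ccl12*, which encodes a further Ccr2 ligand of the mouse and lies beside *Ccl8*, reached 135 CPM in cluster 0 (129 to 141), followed by 48.0 in cluster 10. *Ccl24*, which encodes the Ccr3 ligand eotaxin 2, reached 207 CPM in cluster 19 (174 to 244), followed by 17.2 in cluster 10. *Ccl1*, whose product binds Ccr8, reached 649 CPM in the ILC2-like cluster 16 (546 to 767), followed by 312 in cluster 11. *Ccl25* and *Ccl27a* reached only 60.8 CPM (cluster 5) and 29.6 CPM (cluster 9). *Ccl27a* shares sequence with near-identical copies, so its count is uncertain.

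The receptors of these ligands were spread over other clusters. *Ccr2*, the receptor of Ccl2 and Ccl7, had its peak of 1562 CPM (1399 to 1739.7) in the ILC2-like cluster 16, and clusters 10 and 0, highest in both ligands, had 501 and 371. *Ccr1*, which binds Ccl3, Ccl5, Ccl6 and Ccl9, had 379.99 CPM (360.2 to 401) in its highest cluster, the neutrophil-like 7, followed by 227 in cluster 10. *Ccr4*, the receptor of Ccl17 and Ccl22, had 65 UMIs in all, and its highest level of 18.8 CPM (5.13 to 48.2), in cluster 16, rested on 4 of them. *Ccr8*, whose product binds Ccl1 and, in the mouse, Ccl8, was highest in cluster 16 at 132 CPM (87.6 to 190.4), where *Ccl1* was highest too. The atypical receptor gene *Ccrl2* was highest in cluster 7, at 583 CPM. Of the 11 receptors listed, 9 had at least 50 UMIs, and all 9 passed 4 times the mean of the other clusters in their leading cluster, against the same 34.8% of all genes. *Ccr6* and *Ccr7* were led by the B cell clusters 1 (84.3 CPM) and 2 (524 CPM), *Ccr9* by cluster 5 (1764 CPM) and *Ccr10* by cluster 4 (6.02 CPM).

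The study asked what nt-LNA does to the leukocytes of the atherosclerotic aorta. The count table pools both libraries, so ligand levels by treatment were not analysed here, and only the numbers of cells in each cluster can be set side by side. The NK cell-like cluster 3 held 7.43% of nt-LNA cells (6.71 to 8.20, exact Clopper-Pearson interval) and 9.70% of saline cells (8.62 to 10.9), so that the ratio was 0.766, with an interval of 0.652 to 0.901. Cluster 10 held 3.06% of nt-LNA cells and 7.62% of saline cells, which is 0.401 of the saline share (0.323 to 0.498). Cluster 8 held 3.88% of nt-LNA cells and 6.78% of saline cells, which is 0.572 of the saline share, with an interval of 0.465 to 0.704. The intervals held 1 for cluster 0, with a ratio of 0.913 (0.799 to 1.04), and for cluster 18, with 1.10 (0.625 to 1.99). As shares of the clusters deposited as Macrophages alone, the ratio for cluster 0 lay above 1, at 1.28 (1.12 to 1.47). The shares of a library add up to a fixed whole, so higher shares of some clusters go with lower shares of others. Over all cells, 7 clusters had intervals above 1. Among them were clusters 14 (2.53), 5 (2.29) and 2 (1.84), which had raised mitochondrial shares. The interval of cluster 16, which had one too, held 1 (ratio 1.19).

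The 6 clusters whose interval of the ratio of nt-LNA to saline share lay below 1 (clusters 1, 3, 7, 8, 10 and 15) held 35.1% of all UMIs. They held 90.3% of the *Ccl5* UMIs, 84.8% of *Ccl22*, 70.4% of *Ccl3*, 67.2% of *Ccl4*, 67.2% of *Ccl17*, 55.0% of *Ccl2*, 51.8% of *Ccl7*, 49.99% of *Ccl6* and 45.8% of *Ccl9*. For *Ccl8* it was 18.3%. Cluster 15 is among the 6 over all cells, with a ratio of 0.676 (0.473 to 0.968), but not over the clusters deposited as Macrophages alone, with 0.951 (0.665 to 1.36). These percentages say where the pooled UMIs lay and give no level in either library. With 1 library per treatment the shares have no replicate check, and differences between mice and between libraries cannot be told apart from treatment.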

How the data were processed

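Cells were processed with Cell Ranger 2.1.1 and Seurat on the mouse build mm9, per the submitters' processing notes. The sources used here do not give the cell filters, the clustering settings or any removal of doublets. No doublet caller was run, since counts per cell were not used. The deposited counts are whole-number UMIs per gene, which the authors added up within each of the 20 clusters across both libraries. Another deposited table assigns cells to libraries, clusters and named types, and its tally of cells equalled the deposited summary of cell counts (largest difference 0). The deposited table scaled by upper quantile was not used.

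From these, CPM with exact Poisson 95% intervals, ratios to the mean CPM of the other clusters, exact conditional intervals of ratios between clusters, and exact Clopper-Pearson 95% intervals of cell shares were computed. All cover counting error only. A count of 0 was given the limit of 3 counts, which is lower than the upper end of its exact 95% interval. The cluster with a gene's highest CPM leads it. The share of genes above a ratio of 4 is over genes with at least 50 UMIs. Likeness of profiles used a pseudocount of 1 CPM and genes with at least 200 UMIs. Clusters were called X-like with at least 3 markers of 1 list among their 50 leading genes and no other list with as many among the leading 10. Cluster 10 met this rule for lipid-laden macrophages but is given by number.

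The 10 ligands, the lists of other ligands, receptors and regulators, the markers and these rules were chosen with earlier results of these data known. The rule for named genes took all 10 ligands, listed pathway genes with at least 50 UMIs and the 3 genes most like each ligand. It also took *S100a8*, *S100a9*, *Lyz2* and *Jchain* as gauges of free RNA. Of these, *Jchain* was highest in cluster 4 at 2597 CPM. Next came cluster 10 at 312 CPM, 12.0% of the cluster 4 level, and cluster 6 at 205 CPM, 7.88%. The source of *Jchain* in clusters 10 and 6 was not tested. Values of 1 of the listed genes are not reported here. *Cx3cl1* and *Ccl11* are named only for their place on the chromosome. Gene order and upstream sequences are from RefSeq (GRCm38.p6), another build than that in the notes. Calculations used scipy 1.17.1, pandas 2.3.3 and numpy 2.4.6 under Python 3.11.15, and matplotlib 3.10.9 drew the plots. The code for ratios to the mean of the other clusters was checked on simulated counts with known ratios. The Poisson interval of a single count was checked for coverage on simulated counts. The intervals of ratios were not part of these checks.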

Additional observations from a re-analysis of the deposited data

How the results depend on the processing

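The following 6 alternatives were run for the ratio of each ligand's leading cluster to the other clusters: totals without mitochondrial and ribosomal protein genes, upper-quartile scaling, UMIs per cell, a pooled reference, the other clusters deposited as Macrophages as reference, and leaving out clusters 2, 5, 14 and 16. Over the 60 pairs of ligand and alternative the ratio stayed above 4 in 58 and the leading cluster was unchanged in 59. The leading cluster could change only with totals without mitochondrial and ribosomal protein genes, upper-quartile scaling or UMIs per cell. The 2 other references kept it by design, and clusters 2, 5, 14 and 16 led none of the ligands. The exceptions were *Ccl17*, led by cluster 17 in UMIs per cell, and *Ccl6* (3.13) and *Ccl9* (3.67) with the macrophage reference, which leaves 8 of 10 ligands above 4. The ratio ran from 8.98 to 22.9 for *Ccl2* and from 49.7 to 116.7 for *Ccl5*. The summed level of cluster 3 was 21.1 times the other clusters without mitochondrial and ribosomal genes, 21.8 with upper-quartile scaling and 8.81 in UMIs per cell, against 20.4 in CPM. UMIs per cell are not scaled to a common total, and cells of cluster 3 averaged 5848 UMIs, against 17397 in cluster 10 and 13800 in cluster 0. The cause of the smaller shifts in the other settings was not tested. Of the 30 most alike genes named, 16 remained with Spearman's correlation and 21 with a pseudocount of 10 CPM. The share of all genes above the 4-fold mark was 40.8% with a minimum of 20 UMIs and 26.6% with 200. With the clusters deposited as Macrophages as denominator, the nt-LNA to saline ratio was 1.28 in cluster 0, 0.805 in cluster 8, 0.565 in cluster 10 and 0.555 in cluster 7, a change that follows from the denominator. Cluster 0 thereby moved to an interval above 1 and cluster 15 to one that holds 1. At this depth the order of *Ccl8* was not resolved below cluster 0, since 18 of 19 steps between neighbouring clusters had intervals that held 1. No paired analysis was possible because each treatment has 1 library and the counts pool both.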

Other observations

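All 15 listed regulators of ligand transcription had at least 50 UMIs, and 6 of them passed 4 times the mean of the other clusters, against 34.8% of all genes. *Relb*, a subunit of the noncanonical NF-kappa B pathway, was highest in cluster 8 at 151 CPM (141 to 161), where *Ccl17* and *Ccl22* were also highest. Its partner *Nfkb2* was highest there too, at 84.1 CPM, but did not pass 4 times the mean of the other clusters (ratio 2.46). *Nfkb1* and the feedback inhibitor gene *Tnfaip3* were highest in the ILC2-like cluster 16, at 1199.9 and 1327 CPM, followed by cluster 11, clusters that held *Ccl1* and low levels of the 10 ligands. *Nfkbia*, another feedback inhibitor, was highest in cluster 11 at 3543 CPM, and *Nfkbiz* in cluster 16 at 847 CPM. *Cebpb*, a transcription factor gene of myeloid cells, stood at 2875 CPM in cluster 15, 2292 CPM in cluster 7 and 1784 CPM in cluster 10. The other regulators also had ratios under 4, namely *Rel* (highest in cluster 2), *Rela* and *Irf1* (cluster 19), *Irf4* (cluster 1), *Irf5* (cluster 17), *Stat6* (cluster 15) and *Jun* and *Fos* (cluster 11).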
